A study of Mus musculus with 38 samples.

Results

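LAP2B CUT&RUN signal over the genome was compared between epiblast-like cells (EpiLCs) that lacked LBR and WT EpiLCs, over genes and, at this stage, over families of transposable elements (TEs). In all, 6 libraries entered the comparison, out of 38 samples in the series: LBRKO EpiLC replicates 1, 2 and 3 and WT EpiLC replicates 1, 2 and 3, taken by their labels, all with the LAP2B antibody. WT cells were a mouse embryonic stem cell (mESC) line with an intact Lbr gene. LBRKO cells came from that line through Cas9 and 1 guide against exon 2 of Lbr, picked as colonies with indels on all alleles, and the sources used here do not say which clone or clones gave the 3 LBRKO libraries. Both genotypes kept all lamins. Both were moved from 2i and LIF medium into N2B27 with 20 ng/mL FGF and 12 ng/mL activin A and collected at 48 h, with 200000 cells and 0.3 pg of yeast DNA for each replicate. The karyotype of the WT line was mixed. Most WT cells had normal ploidy, some had lost the Y chromosome, and others had lost it and carried trisomy of chromosomes 6 and 8. Other libraries were used for reference: naive cells of the same genotypes, kept in 2i and LIF (3 LBRKO and 3 WT libraries), and TKO EpiLCs. TKO cells lack all lamins and keep LBR. WT EpiLC libraries with a lamin B1 antibody (LMNB1) or a control antibody (IGG) were used for reference only. The naive and TKO LAP2B libraries also entered the limma estimate of spread between replicates.

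LBR is a protein of the inner nuclear membrane whose nucleoplasmic part binds lamins, HP1 and histones and whose membrane part is a sterol reductase. LAP2B, a splice product of Tmpo, is another protein of that membrane. It binds lamins, BAF and HDAC3. The authors did not use LAP2B in EpiLCs to stand for lamina-associated domains, because in WT EpiLCs its signal lay outside those domains as well as in them, so the values here are LAP2B signal and not a measure of the position of a gene or TE in the nucleus. In most cells LBR and lamins hold heterochromatin there: long gene-poor stretches rich in LINE-1 elements lie at the edge, and gene-dense stretches rich in SINEs lie inside. EpiLCs model the post-implantation epiblast, in which naive pluripotency genes go down and heterochromatin is rebuilt.

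CUT&RUN reads DNA, so coverage over Lbr or over marker genes checks neither the knockout nor the cell state. Over Lbr, LAP2B relative values (a gene's value over the median gene of its library) were 4.09, 4.47 and 4.20 in WT and 4.33, 5.604 and 4.93 in LBRKO EpiLCs, a log2 change of 0.21 that did not pass the test (adjusted p = 0.29, limma across all genes). The 3 LBRKO libraries held 29345236 to 32980706 reads over genes and the 3 WT libraries 18713692 to 29685076, with 56 to 91 reads over the median gene of a library. No library was a copy of another, since replicates differed by 3.398 to 5.77 chi-square units per degree of freedom. Nothing in the labels says that replicates were separate cultures, so the spread behind the p-values may be technical. Permutation p-values rest on the LBRKO and WT EpiLC libraries alone. The limma p-values use a spread pooled over the replicates of all LAP2B groups, naive and TKO ones among them.

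Relative to the median family, LAP2B signal was lower over young LINE-1 and IAP retrovirus families and higher over SINE families in LBRKO EpiLCs. Among 1225 TE families, 229 rose and 352 fell in relative LAP2B value (limma on log2 values, adjusted p under 0.05). Thus 47.4% of families were called, 18.7% higher and 28.7% lower. The relative value of a family is its mean over copies divided by the median family of the same library. Among families of at least 100 copies the rises reached 0.31 and the falls -0.50 on the log2 scale. These signs are relative to the median family. Divided by the median gene instead, 39 families were higher and 297 lower (27.4% called, or 3.18% and 24.2%), with a median change of -0.07, and divided by the mean family, 633 were higher and 10 lower (52.5% called, or 51.7% and 0.816%), with a median change of 0.21. The mean takes in the satellite GSAT_MM, at 1271 to 1517 times the median family in WT libraries. On the spike-in scale, the values as deposited, 1 family was called (0.0816%), the single-copy RLTR43B, named here after its value was seen; 23 families had an unadjusted p under 0.05 and the median change was -0.04. Group medians on that scale were -0.34 for L1MdA, -0.36 for IAP and 0.21 for B1 families, against -0.32, -0.33 and 0.22 on the relative scale.

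**Figure D1:**
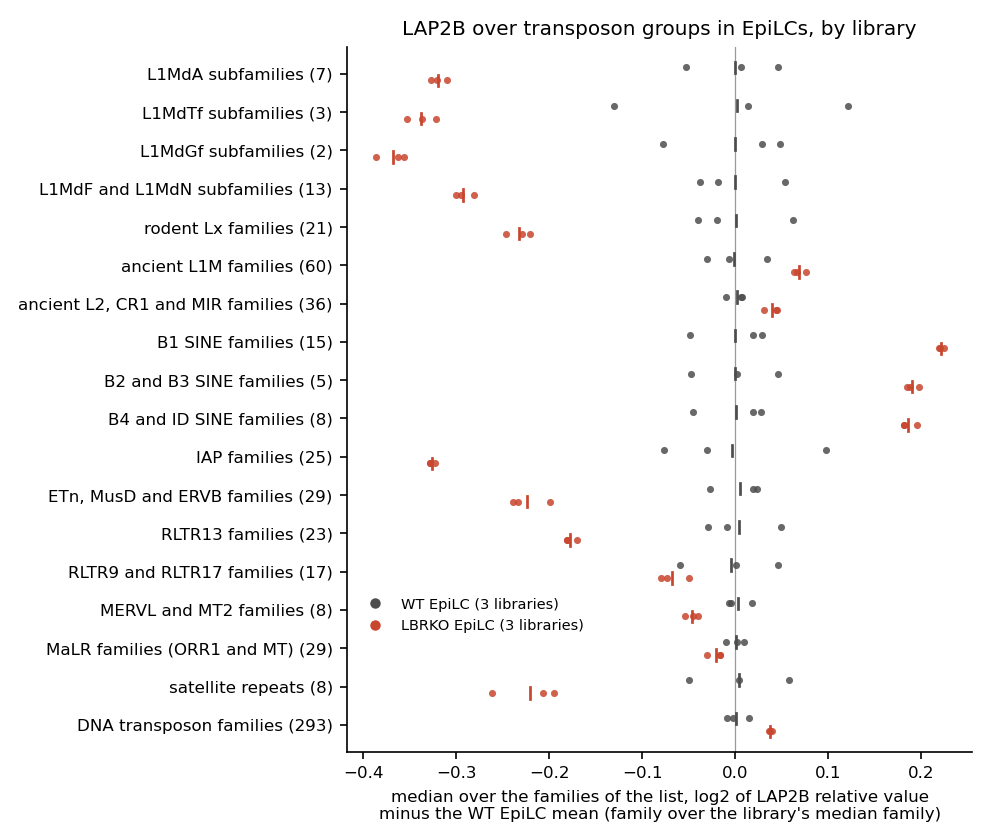
Median over the families of each TE group in each EpiLC library, as log2 of the relative LAP2B value minus the WT mean; dots are libraries, bars are means of 3, and numbers of families are in brackets. LINE-1 groups named L1Md, Lx families and IAP families lie to the left in all 3 LBRKO libraries, and SINE groups to the right. The group labelled L1MdF and L1MdN also takes in L1MdV and L1MdMus names.

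LINE-1 elements copy themselves through RNA, and the L1Md subfamilies are the young mouse ones, some of which still move. All 7 L1MdA, 3 L1MdTf and 2 L1MdGf families fell, with group medians of -0.32, -0.34 and -0.37. So did all 13 families of the list called L1MdF and L1MdN here, which also took in L1MdV and L1MdMus names (median -0.29). L1MdA_II had relative values of 3.401, 3.09 and 3.44 in WT and 2.53, 2.50 and 2.52 in LBRKO EpiLCs, so the groups did not overlap, as in 59% of all families (24.1% with all LBRKO libraries higher and 34.9% with all lower). Its log2 change was -0.38 (SE 0.04, adjusted p = 1.14e-06). In L1MdTf_III the values were 3.79, 3.35 and 3.85 in WT and 2.83, 2.76 and 2.81 in LBRKO EpiLCs, and the change was -0.37 (adjusted p = 2.53e-06). L1MdGf_I changed by -0.39. The rodent Lx families, older relatives of L1Md, also fell in all 21 cases, by a median of -0.23, from -0.29 in Lx2A to -0.08 in Lx8. The ancient L1M families, spread before the rodents, behaved otherwise: 30 of 60 rose and 1 fell, with a median of 0.07. This count rests on the divisor, since none of the 60 was called with the median gene (0 higher, 0 lower, median 0.02) and 51 were higher with the mean family; with the median over copies 9 were higher. Leaving out any 1 of the 6 libraries left 7 of 7 L1MdA, 3 of 3 L1MdTf, 2 of 2 L1MdGf, 13 of 13 L1MdF and L1MdN and 21 of 21 Lx families called lower.

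With the mean family as divisor, no L1Md or Lx family was called: the medians were -0.08 for L1MdA, -0.09 for L1MdTf, -0.12 for L1MdGf, -0.06 for L1MdF and L1MdN and 0.00 for Lx families, against 0.21 over all families. With the median gene as divisor all 7 L1MdA families fell (median -0.37), as did 18 of 21 Lx families. Taking the median over copies in place of the mean, 7 of 7 L1MdA, 11 of 13 L1MdF and L1MdN and 13 of 21 Lx families fell.

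SINEs are short non-coding elements copied by the LINE-1 machinery, and B1, B2 and B4 are the main mouse kinds. Their copies are shorter than a 1 kb bin, so a SINE value takes in the sequence around the copy. Of 15 B1 families 14 rose, PB1 being the exception (0.09, adjusted p = 0.16), with a group median of 0.22. All 5 B2 and B3 and all 8 B4 and ID families rose, each group by a median of 0.19. PB1D9, with 28801 copies, had relative values of 0.82, 0.89 and 0.87 in WT and 1.04, 1.05 and 1.06 in LBRKO EpiLCs. All LBRKO libraries lay above all WT libraries there, as its choice among the largest rises required, and the log2 change was 0.26 (SE 0.05, adjusted p = 2.00e-04). B2_Mm1t had 0.865, 0.944 and 0.909 in WT and 1.06, 1.07 and 1.07 in LBRKO EpiLCs, a change of 0.22. Over the class, 31 of 34 SINE families rose and 0 fell, against 46 higher and 70 lower of 198 LINE families and 63 higher and 237 lower of 630 LTR families. With the mean family as divisor 15 of 15 B1 families were higher (median 0.45), and with the median gene 12 of 15 (median 0.17).

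**Figure D2:**
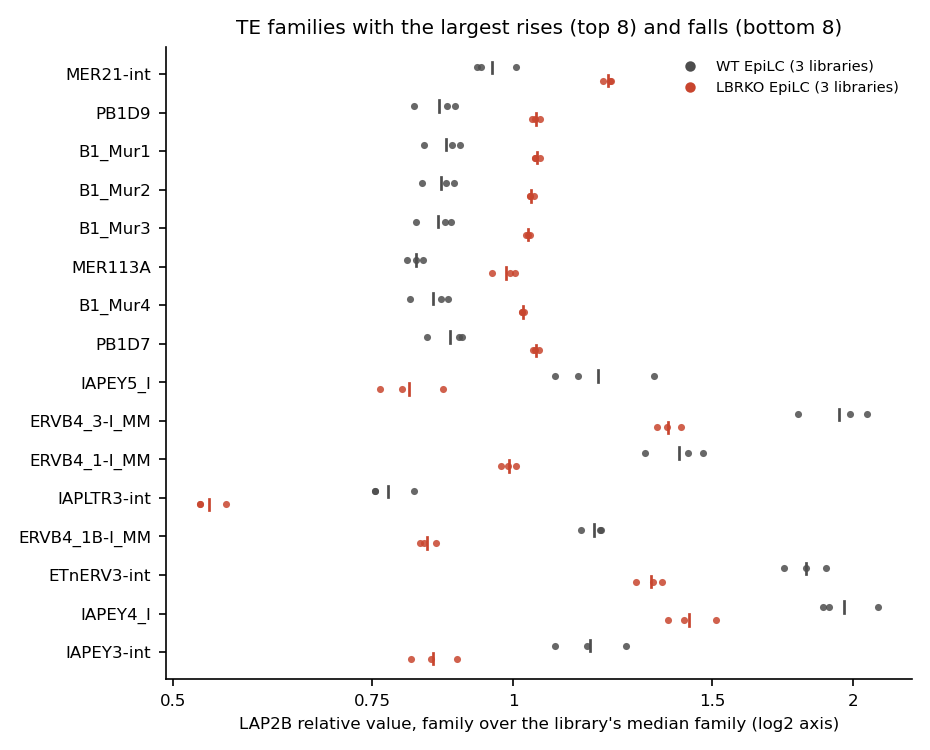
Relative LAP2B value in each EpiLC library (log2 axis) of the TE families of at least 100 copies with the largest rises and falls; dots are libraries and bars are means of 3. The 8 rises include 6 B1 families, and the 8 falls are 4 IAP, 3 ERVB4 and 1 ETn family.

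IAP elements are endogenous retroviruses of the ERVK group that are active in mice and are silenced by H3K9 methylation and DNA methylation. All 25 IAP families fell, from -0.50 to -0.23, with a median of -0.33. IAPEY5_I, with 320 copies, had relative values of 1.14, 1.09 and 1.33 in WT and 0.76, 0.80 and 0.87 in LBRKO EpiLCs, and changed by -0.50 (SE 0.08, adjusted p = 4.32e-05). IAPEz-int, the internal part of a family, with 7601 copies, had 2.24, 2.20 and 2.70 in WT and 1.71, 1.72 and 1.84 in LBRKO EpiLCs, a change of -0.41 (adjusted p = 0.00198). LBRKO libraries lay below WT libraries in both, which in IAPEY5_I its choice among the largest falls required. The LTR family IAPLTR1_Mm changed by -0.24 and IAPLTR3-int by -0.46. Genes of the Y chromosome, on which many IAPEY copies lie, were also lower in LBRKO libraries (given below); the table gives no position for TE copies, so the part of this in the IAPEY values was not tested. With the mean family as divisor 4 of 25 IAP families were lower (median -0.12), and with the median gene 25 of 25.

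Of 29 ETn, MusD and ERVB families, relatives of IAP, 21 fell and 1 rose (ERVB3_1-LTR_MM, 0.18). ERVB4_1-I_MM had relative values of 1.43, 1.31 and 1.47 in WT and 0.98, 1.01 and 0.99 in LBRKO EpiLCs, a change of -0.46 (SE 0.05, adjusted p = 1.30e-06). ETnERV3-int changed by -0.43. Of 23 RLTR13 families 14 fell, and of 17 RLTR9 and RLTR17 families 5 fell (29.4%, near the 28.7% of all families), with medians of -0.18 and -0.08; without LBRKO replicate 2 or WT replicate 1, 3 of the 17 fell. These 3 medians turned positive with the mean family as divisor, at 0.01, 0.06 and 0.15. Across ERVK, 153 of 285 families fell and 12 rose, against 35 lower and 15 higher of 121 ERV1 families and 26 lower and 23 higher of 116 ERVL families. With the median gene as divisor 137, 38 and 14 were lower and 1, 4 and 2 higher. With the mean family the balance was the opposite, at 72 higher and 8 lower for ERVK, 65 and 1 for ERV1 and 69 and 0 for ERVL. MERVL-int, the retrovirus whose promoter MT2_Mm is used in 2-cell embryos, changed by -0.17 and MT2_Mm by -0.13, while the older MT2B and MT2B2 rose by 0.15 and 0.16.

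DNA transposons are cut-and-paste elements long inactive in mice. Of their 293 families 86 were higher (29.4%, against 18.7% of all families) and 31 lower (10.6%, against 28.7%), with a median of 0.04. The balance turned with the median gene as divisor, to 7 higher and 20 lower (median -0.01), and was 204 higher and 0 lower with the mean family and 11 higher and 2 lower with the median over copies. Within them 45 of 80 hAT-Charlie families rose and 2 fell. MER113A, one of these, had 0.805, 0.821 and 0.833 in WT and 1.00, 0.957 and 0.994 in LBRKO EpiLCs, a change of 0.24. The largest rise among families of at least 100 copies was at the ERVL part MER21-int, with 0.94, 1.01 and 0.93 in WT and 1.20, 1.22 and 1.22 in LBRKO EpiLCs (log2 change 0.31).

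Satellites are tandem repeats that build centromeres, and 3 of 8 satellite families fell (37.5%, near the 28.7% lower of all families) with 0 higher. With the median gene as divisor 4 fell, and with the mean family the balance turned to 3 higher and 1 lower. The major satellite GSAT_MM, read over 51 annotated copies, had relative values of 1271, 1397 and 1517 in WT and 986, 986 and 1100 in LBRKO EpiLCs. LBRKO libraries lay below WT libraries, but its change of -0.44 did not pass the test (adjusted p = 0.094). SYNREP_MM had 237, 240 and 274 in WT and 173, 178 and 191 in LBRKO EpiLCs (change -0.47, adjusted p = 0.045). CENSAT_MC, with only 4 copies, changed by -0.66. The study kept 1 primary alignment for each read pair, and reads of repeats can match many places, so near-identical families may share reads.

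TE families with more LMNB1 per copy in WT EpiLCs, measured in separate libraries, were more often lower in LBRKO EpiLCs. The LMNB1 of a family is a mean of sums over bins, not divided by copy length, so long copies can rank high. L1MdTf families had medians of 3.65 for LMNB1 and 3.21 for IGG, in units of the median family. With families ranked by LMNB1 and cut into 4 groups, 127 of 307 rose and 29 fell where LMNB1 was least, and 4 of 306 rose and 197 fell where it was most. The groups between had 72 higher and 31 lower, then 26 higher and 95 lower. Across families, Spearman's rho of the change was -0.56 with LMNB1 and -0.14 with IGG (n = 1225 families, which share libraries and are not independent, so no p is given). The log2 ratio of the LAP2B mean in the highest group to that in the lowest was 2.91, 2.95 and 3.07 in WT and 2.48, 2.50 and 2.60 in LBRKO libraries. All LBRKO values lay below all WT values, at a difference of -0.45 (exact permutation p = 0.1, n = 3 per group, the smallest p that 3 against 3 allows). The ratio uses plain means over families, so a very high family such as the satellite GSAT_MM can carry much of it. This holds for the LMNB1 and IGG ratios below too, and the part of GSAT_MM in them was not tested. The difference was -0.24 with families of at least 100 copies, which leaves out GSAT_MM, and -0.26 with the median over copies. The libraries lay apart in the same way in both. IGG libraries also had a high ratio, 3.27, against 2.63 for LMNB1, and with families ranked by LMNB1 over IGG the difference was 0.19 (exact permutation p = 0.2, n = 3).

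The mean LAP2B value as deposited overlapped between the genotypes. RPKM already divides by the reads of a library, so this mean is not the yield of DNA against yeast DNA. With the factor applied to read counts, given last, LBRKO libraries lay above WT libraries over genes. On the spike-in scale the log2 mean over genes was 3.96, 3.41 and 3.92 in WT and 3.81, 3.81 and 3.92 in LBRKO EpiLCs, a difference of 0.08 (exact permutation p = 1, n = 3), which turned to -0.095 with WT replicate 2 left out and was 0.18 and 0.16 with WT replicate 1 or 3 left out. Over TE families it was 0.80, 0.26 and 0.85 in WT and 0.29, 0.31 and 0.48 in LBRKO EpiLCs, a difference of -0.27 (exact permutation p = 0.4, n = 3). The latter was -0.07 with families of at least 100 copies, -0.13 with the median over copies, -0.46 without WT replicate 2 and -0.17 without WT replicate 3. The groups overlapped in both, and WT replicate 2 was the lowest library. With the spike-in factor applied to read counts in place of RPKM, the difference over genes was 0.51 and all LBRKO libraries lay above all WT libraries (exact permutation p = 0.1, n = 3, the smallest possible), and that over TE families was 0.15 (exact permutation p = 0.2, n = 3).

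On the relative scale 9381 genes rose and 7232 fell of 70381 tested, so 23.6% were called, 13.3% higher and 10.3% lower, while among genes of at least 10 kb 5755 rose and 6128 fell. Values as deposited (spike-in scale) gave 3983 higher and 2489 lower (9.2%, with 5.66% higher and 3.54% lower). Without WT replicate 2 the balance there was the opposite, at 1969 higher and 4095 lower. Calls on that scale fell to 3084, 3090 and 3510 without LBRKO replicate 1, 2 or 3 and to 3825 without WT replicate 1, and with the factor applied to read counts 23628 rose and 1018 fell. Among called genes with a name, with libraries of the 2 genotypes that did not overlap, of at least 10 kb and at least 1 Mb apart, and off chromosome 6, which is treated apart, the largest rises were in Med13 and Usp32 on chromosome 11, Serpinc1 on chromosome 1, N4bp2l2 and Mtf2 on chromosome 5, Calr4 on chromosome 4, Btbd10 on chromosome 7 and Nsrp1 on chromosome 11, at log2 changes of 1.53 to 1.71. By the same limits the largest falls were in Mmp3, Vmn2r104, Vmn1r174, Vmn2r-ps40, Or5k16, Hnf4g, Mrgpra3 and Pramel42, at -1.61 to -1.43. Over all tested genes, called rises reached 2.22 and called falls were up to 1.82 in size. Every one of the genes named passed the test on the spike-in scale as well.

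The 250 bases before the start of 2 of the genes with the largest rises (Dennd5b of chromosome 6 is described below) and 2 with the largest falls, read from GRCm39 with GENCODE M39 starts, are given to show their CpG, the site of DNA methylation. The letters CG, the same on both strands, are in capitals. Dennd5b at chr6:149003391-149003640 and Med13 at chr11:86248749-86248998, both minus strand, rose, and Hnf4g at chr3:3572834-3573083 and Mmp3 at chr9:7445572-7445821, both plus strand, fell.
Dennd5b: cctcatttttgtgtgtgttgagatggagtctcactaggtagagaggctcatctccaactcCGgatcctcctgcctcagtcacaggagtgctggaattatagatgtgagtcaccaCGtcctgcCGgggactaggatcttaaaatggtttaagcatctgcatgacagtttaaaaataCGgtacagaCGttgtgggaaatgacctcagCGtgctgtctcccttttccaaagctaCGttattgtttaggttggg
Med13: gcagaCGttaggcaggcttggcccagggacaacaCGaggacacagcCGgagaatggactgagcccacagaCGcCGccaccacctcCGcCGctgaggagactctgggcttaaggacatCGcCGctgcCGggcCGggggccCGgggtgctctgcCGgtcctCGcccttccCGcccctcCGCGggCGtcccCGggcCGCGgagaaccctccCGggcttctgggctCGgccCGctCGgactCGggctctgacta
Hnf4g: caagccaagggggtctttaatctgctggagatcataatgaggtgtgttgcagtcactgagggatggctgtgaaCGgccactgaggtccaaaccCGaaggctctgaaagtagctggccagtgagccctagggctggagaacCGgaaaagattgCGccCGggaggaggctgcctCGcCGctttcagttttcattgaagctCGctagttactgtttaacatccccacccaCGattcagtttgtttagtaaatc
Mmp3: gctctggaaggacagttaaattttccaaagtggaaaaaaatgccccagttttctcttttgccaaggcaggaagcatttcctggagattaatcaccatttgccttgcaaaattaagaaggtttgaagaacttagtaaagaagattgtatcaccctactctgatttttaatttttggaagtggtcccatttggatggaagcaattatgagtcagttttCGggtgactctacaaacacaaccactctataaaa
These windows hold 7, 26, 9 and 1 CG, so the 4 do not separate rises from falls. Among all tested genes the median window held 3 and 11.7% of windows held none. Genes that rose had a median of 5, with none in 6.75%, and genes that fell a median of 2, with none in 19.4%. The other falls named above held 0 to 3.

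Med13, a subunit of the Mediator kinase module (chr11:86157859-86248748), had relative values of 12.3, 12.7 and 9.29 in WT and 37.5, 39.2 and 35.2 in LBRKO EpiLCs. The groups did not overlap, as the choice of these genes required and as held for 38.5% of genes (20.5% with all LBRKO libraries higher and 18% with all lower), and the log2 change was 1.71 (SE 0.12, adjusted p = 6.33e-16). Mtf2, a Polycomb-like partner of PRC2, had 6.67, 6.31 and 5.43 in WT and 19.6, 19.5 and 17.6 in LBRKO EpiLCs, a change of 1.61. Serpinc1 codes antithrombin, a liver product. Its values were 3.09, 4.62 and 3.84 in WT and 11.8, 14.7 and 11.3 in LBRKO EpiLCs, a change of 1.69. Usp32, a deubiquitinase, and Nsrp1, a splicing regulator, changed by 1.66 and 1.53. On the low side, Mmp3, the matrix protease stromelysin 1, had 2.87, 2.42 and 2.53 in WT and 0.89, 0.62 and 0.88 in LBRKO EpiLCs. Hnf4g, a nuclear receptor of gut and kidney (chr3:3573084-3724860), had 28.5, 25.7 and 23.5 in WT and 9.14, 9.37 and 8.59 in LBRKO EpiLCs, a change of -1.51 (SE 0.11, adjusted p = 7.12e-16). All LBRKO libraries were below all WT libraries at both, again as the choice required.

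**Figure D3:**
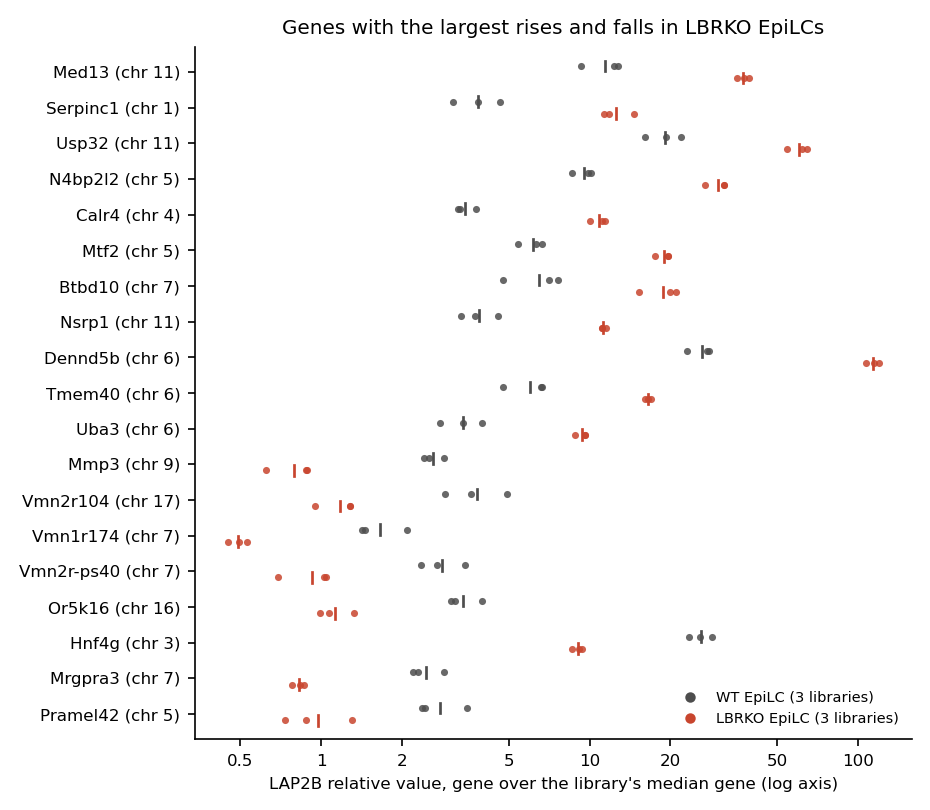
Relative LAP2B value in each EpiLC library (log axis) of the genes with the largest rises off chromosome 6, the 3 largest on chromosome 6 and the 8 largest falls; dots are libraries and bars are means of 3. The libraries of the 2 genotypes do not overlap at any of them, as the choice of the genes required.

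The median genes of chromosomes 6 and Y stood apart from the rest. The median gene of chromosome 6 stood at 0.30, 0.33 and 0.32 above the WT mean in the 3 LBRKO libraries, against -0.04 to 0.04 in WT libraries, and that of chromosome Y at -0.34, -0.38 and -0.31 (exact permutation p = 0.1 each, n = 3, the smallest possible; adjusted p = 0.233 over the chromosomes). The other 19 chromosomes differed by -0.08 to 0.09, chromosome 8 by -0.01. On chromosome 6, 1269 of 4092 genes rose (31.0%) and 156 fell (3.81%), and these rises made 13.5% of all higher calls. On chromosome Y, 127 of 912 fell (13.9%) and 2 rose (0.22%). Over all genes 10.3% fell and 13.3% rose, so the share lower on chromosome Y was near that of all genes. In CUT&RUN a change in copies of the DNA in the cells and a change in LAP2B on each copy cannot be told apart, and the WT line was mixed for chromosomes 6, 8 and Y. Naive LBRKO cells differed from naive WT cells by 0.24 at chromosome 6 and -0.63 at chromosome Y. Chromosome 6 did not stand apart in naive cells: chromosome 11 differed by 0.36, chromosome 5 by 0.20 and chromosome X by -0.20.

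Beyond the chromosome's own shift, chromosome 6 held Dennd5b, the largest rise under the same limits, a regulator of Rab proteins, with 27.4, 27.9 and 22.99 in WT and 114, 120 and 107 in LBRKO EpiLCs (log2 change 2.13, or 1.72 against the median gene of its chromosome). Tmem40 and Uba3, the catalytic part of the NEDD8-activating enzyme, changed by 1.46 and 1.45, or 1.07 and 1.06 against their chromosome. With each gene read against its own chromosome 8530 genes were higher and 7053 lower.

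**Figure D4:**
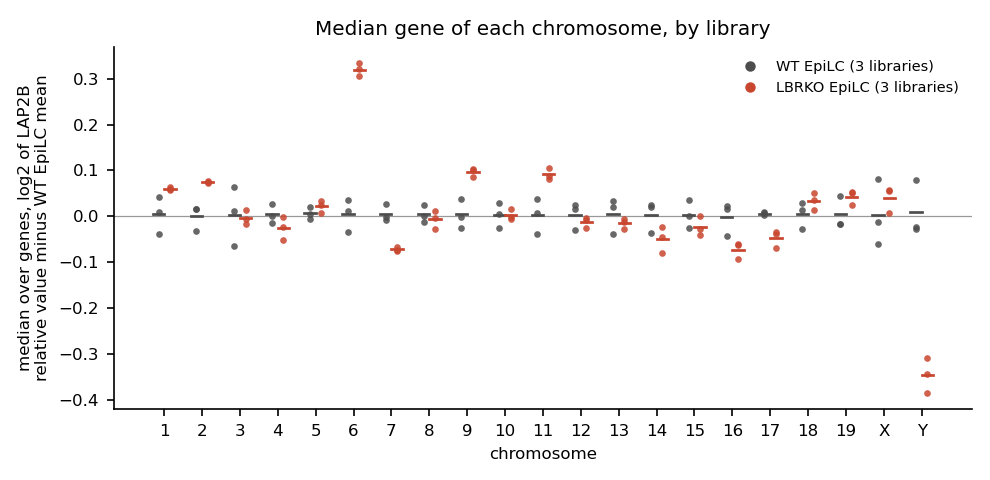
Median gene of each chromosome in each EpiLC library, as log2 of the relative LAP2B value minus the WT mean; dots are libraries and bars are means of 3. Chromosome 6 lies near 0.32 and chromosome Y near -0.35 in the LBRKO libraries, and the other chromosomes between -0.08 and 0.09 from WT.

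At a finer grain, 545 windows of 5 Mb held at least 20 genes; in 165 the LBRKO libraries all lay above the WT libraries and in 225 all below. The changes were over 0.5 in 21 windows, 6 of them on chromosome 6, and under -0.5 in 44. The lowest lay at the start of chromosomes 9 (-1.01 over 31 genes), 3 (-0.97) and 14 (-0.85), and at 10 to 15 Mb of chromosome 7 (-0.81 over 233 genes). The highest lay at 145 to 150 Mb of chromosome 6 (0.86), at 150 to 155 Mb of chromosome 5 (0.82) and at 85 to 90 Mb of chromosome 6 (0.73). Windows under -0.5 had a median gene GC of 40.7%, and those over 0.5 had 44.6%.

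Genes that fell were richer in LMNB1 and poorer in G and C than those that rose. The median LMNB1 signal per 1 kb bin was 0.211 for genes that fell, 0.156 for genes that rose and 0.164 for all tested, and the median GC was 40.5%, 44.4% and 45.3%. With genes cut into 10 groups by LMNB1, the share that rose went from 9.20% in the lowest group to 17.4% in the fourth and 8.43% in the highest, and the share that fell from 6.40% in the lowest to 20.3% in the ninth and 14.3% in the highest. Across genes, Spearman's rho of the change was -0.15 with LMNB1, 0.25 with IGG and 0.16 with GC (n = 70312 genes, not independent). LMNB1 and GC had a rho of -0.20 with each other. With 10 groups by IGG, 23.4% fell in the lowest and 2.15% in the highest. By GC, 30.2% fell in the lowest and 2.25% in the highest. Genes were also cut into 5 groups by GC, each into 4 by LMNB1. From least to most LMNB1, median changes were -0.03, -0.23, -0.36 and -0.23 where GC was lowest. Where GC was highest they were 0.02, 0.02, 0.04 and 0.04. The log2 ratio of LAP2B per bin in the most LMNB1-rich to the most LMNB1-poor of 4 groups of genes was 1.09, 0.75 and 0.86 in WT and 0.77, 0.76 and 0.69 in LBRKO EpiLCs; the groups overlapped (difference -0.16, exact permutation p = 0.3, n = 3), and without WT replicate 1 the difference was -0.07. All LBRKO libraries lay below all WT libraries (exact permutation p = 0.1, n = 3, the smallest possible) with genes read against their own chromosome (-0.18), without chromosome 6 (-0.18), with the median over genes (-0.20) and with genes ranked by LMNB1 over IGG (-0.26), and they overlapped with genes ranked by naive LMNB1 (-0.06) and with sums not divided by bins (-0.03). LMNB1 libraries had 1.52 and IGG libraries 0.26. Unprocessed pseudogenes fell in 287 of 1245 cases and rose in 17, while protein-coding genes rose in 4608 of 20852 cases and fell in 2127.

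The clustered receptor and protease inhibitor families described here had more members lower than higher, most of them above the 10.3% lower over all genes. Bitter taste receptor genes, also clustered and described at the end, had 1 of 34 higher and 0 lower (median 0.10). Vomeronasal type 2 receptor genes, pheromone receptors of the vomeronasal organ, fell in 79 of 113 cases (69.9%) and rose in 3, with a median of -0.67. Vomeronasal type 1 receptor genes fell in 71 of 148 cases with 0 higher (median -0.57). In class II olfactory receptor genes 227 of 870 (26.1%) fell and 11 rose (median -0.39), but in class I genes, in 1 cluster on chromosome 7, 4 of 114 fell (3.51%, below the share over all genes; median -0.20), or 1 against their own chromosome. Vmn2r104 had relative values of 4.92, 3.60 and 2.89 in WT and 1.29, 1.29 and 0.95 in LBRKO EpiLCs (log2 change -1.59), and Vmn2r85 went the other way, from 4.29, 3.42 and 3.44 to 6.61, 5.79 and 5.91 (0.70). Pramel genes, read in germ cells and early embryos, fell in 29 of 54 cases and rose in 2, Pramel42 from 3.51, 2.44 and 2.37 to 0.88, 0.73 and 1.31 (-1.43). Near-identical members of these families may share reads. Serpin A and B genes, protease inhibitors, fell in 33 of 53 cases with 0 higher (median -0.62), defensin genes in 28 of 70 with 0 higher (-0.55), and Cyp2, Cyp3 and Cyp4 genes in 31 of 72 with 6 higher (-0.40). Clustered protocadherin genes, which mark neurons apart, fell in 18 of 58 cases with 0 higher. Without WT replicate 1 the lower calls were 131 of 870 for class II and 0 of 114 for class I olfactory receptor genes, 18 of 70 for defensin genes and 19 of 72 for the Cyp genes. Lower class I calls were 1 without LBRKO replicate 1 and 2 without LBRKO replicate 3.

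Very long neuronal genes lie in A and T rich stretches at the edge of the nucleus in many cells. They fell in 18 of 30 cases (60%) and rose in 2 (6.67%), with a median of -0.41. With a library left out, 17 to 20 were lower and 1 to 3 higher. Over all genes 10.3% fell and 13.3% rose. In the longest of 10 groups of genes by length, 26.9% fell and 29.6% rose. Nrg3, a neuregulin, had relative values of 186, 161 and 146 in WT and 80.7, 82.0 and 81.5 in LBRKO EpiLCs, a change of -1.01 (SE 0.10, adjusted p = 5.91e-12). Csmd1 changed by -0.77 and Pcdh15, a protein of hair cells, by -0.82. Magi2, a synaptic scaffold, rose, with 256, 240 and 223 in WT and 296, 301 and 278 in LBRKO EpiLCs (0.28, adjusted p = 0.0151). The LBRKO libraries lay above the WT libraries there. On the spike-in scale Nrg3, Csmd1 and Pcdh15 passed the test, and Magi2 did not.

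Of 18 naive pluripotency genes 8 rose (44.4%, against 13.3% of all genes and 22.1% of protein-coding genes) and 0 fell. Their median was 0.42 (0.25 against each gene's own chromosome). Without LBRKO replicate 2 only 5 rose, and without LBRKO replicate 1 or 3 there was 1 lower. Pecam1, a surface marker of naive cells, had 13.6, 14.8 and 14.2 in WT and 24.3, 25.7 and 24.0 in LBRKO EpiLCs, a change of 0.79 (SE 0.09, adjusted p = 2.79e-09). Klf5, a naive transcription factor, had 3.59, 3.396 and 2.54 in WT and 5.75, 5.70 and 4.33 in LBRKO EpiLCs (0.71). Fgf4, Esrrb and Nr5a2 changed by 0.67, 0.53 and 0.42, and the adjacent Dppa2 and Dppa4 by 0.47 and 0.44. Nanog, on chromosome 6, changed by 0.43 but by 0.04 against its own chromosome. The shares of core and primed genes that rose were near the 13.3% of all genes and below the 22.1% of protein-coding genes. By gene length, 29.6% rose and 26.9% fell in the longest of 10 groups of genes. Among 7 core genes 1 rose (14.3%), Gdf3 (0.78), also on chromosome 6, and 0 rose against their own chromosome, where Gdf3 was at 0.40 (adjusted p = 0.0913, limma); Pou5f1 changed by 0.03 and Sox2 by -0.27, neither called. Of 20 primed epiblast genes 3 rose (15%) and 1 fell (5%). Otx2, which drives the exit from naive pluripotency, had 2.33, 3.28 and 2.19 in WT and 4.07, 5.03 and 4.40 in LBRKO EpiLCs (0.79, adjusted p = 8.28e-05). Lin28b and the DNA methyltransferase gene Dnmt3a rose by 0.47 and 0.31, and Cdh2, which codes N-cadherin, fell by 0.43. Fgf5, the usual EpiLC marker, changed by 0.07 (not called). On the spike-in scale Pecam1, Klf5, Fgf4, Gdf3 and Otx2 passed the test, and Esrrb, Nr5a2, Nanog, Dppa2, Dppa4, Lin28b, Dnmt3a and Cdh2 did not.

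Over all genes 13.3% rose and 10.3% fell, and over protein-coding genes 22.1% and 10.2%. With genes cut into 10 groups by length, the share that rose went from 4.86% in the shortest to 29.6% in the longest. Genes of the nuclear envelope rose in 7 of 21 cases (33.3%) and fell in 1 (Syne1, -0.31), with a median of 0.19. With a library left out, 5 to 7 rose, 1 to 2 fell and the median was 0.12 to 0.21. Tmpo, which codes LAP2B itself (chr10:90983375-91017177), had relative values of 5.53, 5.86 and 4.96 in WT and 10.3, 10.4 and 9.25 in LBRKO EpiLCs, a change of 0.86 (SE 0.12, adjusted p = 5.57e-08). Tor1aip1, which codes the membrane protein LAP1, had 4.11, 4.40 and 4.11 in WT and 10.5, 10.2 and 8.55 in LBRKO EpiLCs, a change of 1.19. Sun1 and Syne2, which join the nucleus to the cytoskeleton, changed by 0.54 each, and Lmnb1 by 0.39. On the spike-in scale Tmpo and Tor1aip1 passed the test, and Sun1, Syne2, Lmnb1 and Syne1 did not. Of 15 genes of H3K9 methylation and HP1, 5 rose and 0 fell: Kdm3a (1.03) and Atf7ip (0.84), both on chromosome 6 and at 0.63 and 0.44 against it, Cbx5, which codes HP1 alpha (0.90), Zfp644 (0.64) and Kdm4c (0.39). Of 15 transposon silencing and sensing genes 5 rose (3 without WT replicate 3) and 0 fell, among them Tdrd5 (0.69) of the piRNA pathway and Morc1 (0.51), which silences transposons in germ cells. Germline genes rose in 9 of 16 cases (56.2%, or 6 against their own chromosome) and fell in 1, led by the recombination gene Rad51c (1.17) and by Sycp3 (0.93), a part of the synaptonemal complex.

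Lists of other fates and imprinted genes had shares called that were near or below those of all genes, 13.3% higher and 10.3% lower. Over protein-coding genes the shares were 22.1% higher and 10.2% lower. Primitive endoderm genes rose in 3 of 19 cases (15.8%) and fell in 2 (10.5%), with a median of 0.08 and changes up to 1.02. The lowest change of the list was in the laminin gene Lama1, from 20.2, 19.1 and 18.0 to 10.1, 12.2 and 13.7 (-0.68). Mesoderm and gastrulation genes had 1 of 20 higher (Wnt3, 0.55), and neural fate genes 2 of 19 higher (Nes, 0.55, and Pax6, 0.39) and 1 lower (Neurog1, -0.84). Imprinted genes had 3 of 23 higher, Mest, Sgce and Peg10, all on chromosome 6, and 2 lower, Peg3 and Meg3; against their own chromosome 0 were higher and 1 lower. Hox genes had 2 of 39 higher and 0 lower, and their median of 0.14 was -0.06 against their own chromosomes. With a library left out, 1 to 3 imprinted, 1 to 2 neural fate and 0 to 3 Hox genes were higher.

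The change in EpiLCs was next set against that in naive cells, whose LBRKO and WT libraries are separate. In naive cells 56.5% of genes (28.5% higher, 27.9% lower) and 72.5% of TE families (31% higher, 41.5% lower) were called. Of the EpiLC calls, 13548 genes (81.6% of EpiLC calls, 34.1% of naive calls) and 539 TE families (92.8% and 60.7%) were called in the same direction in naive cells, and 297 genes and 0 TE families in the opposite one. Across features the changes at both stages had a Pearson r of 0.67 over genes and 0.86 over TE families, given as a description.

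A test of the difference between the stages called 14096 genes (20%, with 10.7% higher and 9.35% lower in EpiLCs) and 326 TE families (26.6%, with 14.1% and 12.5%). Among those families, 157 were lower and 137 higher at both stages and moved less in EpiLCs, 32 had opposite signs, and 0 moved more in EpiLCs. L1MdA families had a median of -0.32 in EpiLCs and -0.55 in naive cells, and 6 of 7 passed the test of the difference. B1 families had 0.22 and 0.50, and 15 of 15 passed. IAP families had -0.33 and -0.43, and 4 of 25 passed. IAPEz-int changed by -0.41 in EpiLCs and -0.40 in naive cells, a difference of -0.01 (adjusted p = 0.965, limma). These counts rest on the divisor. Where 173 families were higher and 153 lower in EpiLCs than in naive cells, the test called 1031 higher and 2 lower with the median gene, 1 higher and 0 lower with the mean family, and 1 higher and 13 lower with the median over copies, so that at least 13 of the 15 B1 calls were lost with the median gene and all 15 with the mean family.

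Among genes, 4612 were lower and 4007 higher at both stages and moved less in EpiLCs, 353 higher and 7 lower at both moved more in EpiLCs, and 5117 had opposite signs. With the mean gene as divisor 4482 were higher and 9942 lower in EpiLCs, against 7517 and 6579. Of the 30 very long neuronal genes 21 had a higher change in EpiLCs than in naive cells. Magi2 changed by -0.89 in naive cells and 0.28 in EpiLCs, a difference of 1.17 (adjusted p = 1.38e-08, limma). Class I olfactory receptor genes had medians of -1.11 in naive cells and -0.20 in EpiLCs, and 60 of 114 passed the test of the difference. With an EpiLC library left out, their EpiLC median was -0.26 to -0.07. Vomeronasal type 2 receptor genes had -1.40 and -0.67, and 79 of 113 passed. Pramel genes had -1.03 and -0.69, and 3 of 54 passed. Klf5, Pecam1 and Dnmt3a rose less in EpiLCs, with differences of -0.72, -0.60 and -0.69, whereas Dppa2 and Lin28b, at -0.30 and -0.15 in naive cells, were higher in EpiLCs than there by 0.77 and 0.62. Serpinc1 was 0.86 and Btbd10 0.72 higher in EpiLCs than in naive cells.

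**Figure D5:**
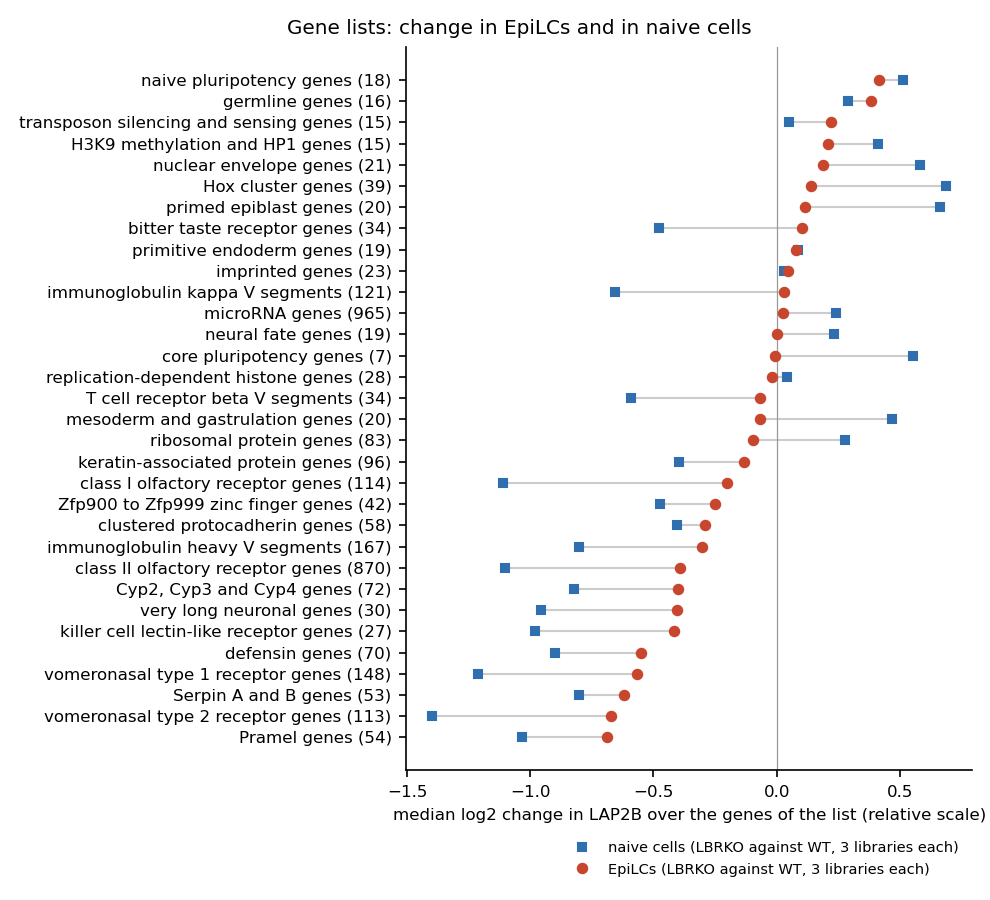
Median log2 change in LAP2B (LBRKO against WT, relative scale) over the genes of each list in EpiLCs (circles) and in naive cells (squares), with the number of tested genes in brackets. The lists of olfactory and vomeronasal receptor genes lie lower in naive cells than in EpiLCs, with class I olfactory receptor genes at -1.11 and -0.20.

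TKO EpiLCs, which have LBR and no lamins, share the WT EpiLC libraries with this comparison, so their values are given beside and are not compared. The TKO line came from a littermate and had trisomy of chromosome 8, with the Y chromosome lost in part of the cells. Against WT, 177 TE families were higher and 223 lower in TKO EpiLCs (32.7%, or 14.4% and 18.2%), and 5289 genes higher and 7540 lower (18.2%, or 7.51% and 10.7%). L1MdA families had a median of -0.17 in TKO and -0.32 in LBRKO EpiLCs, and B1 families 0.22 in each. IAP families had -0.02 in TKO, with 3 of 25 lower, and -0.33 in LBRKO, with 25 of 25 lower. Med13 changed by 0.11 in TKO and 1.71 in LBRKO EpiLCs, and Hnf4g by -0.59 and -1.51.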

How the data were processed

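CUT&RUN libraries were made with LAP2B, LMNB1 or IGG antibodies. The authors aligned reads with Bowtie2 2.3.5.1 to mm39 (GRCm39), kept proper primary pairs with SAMtools 1.10, computed RPKM coverage in bins with deepTools bamCoverage, and multiplied it by a factor from yeast reads (sacCer3). The deposited signal of a gene or TE copy is the sum over 1 kb bins it touches, not divided by its length; for TEs the study names 10 kb bins and keeps blacklisted regions, but the values step as 1 kb bins do. Gene values were whole multiples of 1 read's worth in 100% of cases (tolerance 0.05 of a step). Precision is limited by 56 to 91 reads over the median gene.

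Values were divided by the library's median gene or median TE family (relative scale) or used as deposited (spike-in scale). A TE family is the mean over its copies (3793386 copies, 1225 families). The 10% of genes with the lowest mean were left out (70381 of 78202 tested). Tests used limma 3.58.1 (R 4.3.3) on log2(value + 0.1 of the table median), which understates changes of low features, in 1 model of 24 LAP2B libraries in 8 groups, with Benjamini-Hochberg adjustment. Single values used two-sided exact permutation tests (SciPy 1.17.1). The scripts were tested on simulated data. Symbols and positions came from GENCODE M39. Alternatives were other divisors, filters and pseudocounts, the replicate block, edgeR 4.0.16 on recovered reads, and each library left out. Genes named were the largest called changes with libraries not overlapping, of at least 10 kb and at least 1 Mb apart (8 rises off chromosome 6, 3 on it, 8 falls), TE families the 8 largest each way of at least 100 copies, also called and not overlapping, members of lists of up to 30, and the 2 largest each way of longer lists. The comparison, its lists and these rules were chosen with earlier results of these data known. QKO libraries entered only the model's estimate of spread, the pseudocount and the filter of low genes. H3K9me3 libraries and the authors' table of averages and modified z scores of naive WT LAP2B over TEs were not used here. Some list members are not reported here.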

Additional observations from a re-analysis of the deposited data

Results flagged for a closer look

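Each result here passed a test of the difference between the LBRKO effect in EpiLCs and that in naive cells (limma, adjusted p under 0.05, 3 libraries in each of 4 groups). Over genes it called 14096, and over TE families 326. Among the families with the largest rises in EpiLCs, 6 B1 families had smaller effects there than in naive cells, with differences of -0.38 in PB1D9, -0.31 in B1_Mur1, -0.32 in B1_Mur2, -0.32 in B1_Mur3, -0.33 in B1_Mur4 and -0.32 in PB1D7. Of the largest falls, ERVB4_3-I_MM and ERVB4_1-I_MM were less reduced in EpiLCs, by 0.30 and 0.22. These TE calls rest on the divisor: of 1225 families the test called 153 lower in EpiLCs with the median family, 2 with the median gene, 0 with the mean family and 13 with the median over copies, so at least 4 of the 6 B1 calls were lost with the median gene and all 6 with the mean family.

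Of the genes with the largest changes, Serpinc1 (difference 0.86), Calr4 (0.55), Btbd10 (0.72) and Dennd5b (0.65) rose more in EpiLCs than in naive cells, and Hnf4g (0.57) fell less. These genes were chosen by their changes in EpiLCs.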

How the results depend on the processing

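Of the alternative values of the comparisons, 121 kept their direction and side of the threshold or, for counts, stayed within 1.5 times; 18 moved further and 8 reversed. Genes called on the relative scale went from 12911 to 15060 with a library left out, were 16402 by edgeR and 15583 against the own chromosome, and were 11883 with genes of at least 10 kb, where 5755 were higher and 6128 lower. On the spike-in scale the count was 24646 with the factor applied to reads (23628 higher), and 3084 to 6064 with a library left out; without WT replicate 2 lower calls prevailed (1969 higher, 4095 lower). Leaving out LBRKO replicate 1, 2 or 3 or WT replicate 1 gave 3084, 3090, 3510 and 3825. TE calls on the relative scale were 643 with the mean family, 336 with the median gene, 224 with the median over copies and 483 to 557 with a library left out; on the spike-in scale they were 386 with the factor applied to reads, 2 with the median over copies, 0 with families of at least 100 copies and 0 to 1 with a library left out.

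The stage difference over genes was called 14424 times with the mean gene, where 4482 were higher and 9942 lower, and 9494 to 15721 times with a library left out. Over TE families it was called 1 time with the mean family, 1033 times with the median gene, 14 times with the median over copies and 230 to 339 times with a library left out; without WT naive replicate 3 it was 339, with 165 higher and 174 lower. The library level over genes had the other sign without WT replicate 2, at -0.095, and ranged from -0.095 to 0.18 with a library left out. With the factor applied to reads it was 0.51 over genes and 0.15 over TE families. The TE lamina contrast was 0.19 with families ranked by LMNB1 over IGG. Over 105 named features and 1575 settings, 1477 kept their call, 77 lost it, 19 gained it, and Vmn1r4, at -0.083, and Vmn1r53, at -0.016, turned lower against their own chromosome. The causes were not tested.

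Replicate numbers did not pair the samples: deviations of same-numbered libraries had correlations of 0.03, -0.01 and 0.04 over genes and 0.05, 0.02 and 0.28 over TE families, and not every library was closest to its own number. With the replicate block 16534 genes were called on the relative and 5245 on the spike-in scale, 583 and 0 TE families, and 13941 genes and 331 TE families for the stage difference.

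Depth limits short genes most, and the clone behind the LBRKO libraries and the WT karyotype limit what the genotype alone accounts for.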

Other observations

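Lists on chromosome 6 read differently against their own chromosome. Killer cell lectin-like receptor genes, receptors of natural killer cells, fell in 10 of 27 cases and rose in 1 (Klrg2), with a median of -0.42, and against chromosome 6 fell in 20 of 27 (median -0.80). The lower calls were 1 without WT replicate 1 and 6 without LBRKO replicate 2 or 3. Immunoglobulin kappa V segments had 1 of 121 higher and a median of 0.03, which was -0.28 against chromosome 6, with 7 lower. With a library left out the median of 0.03 became -0.04 to 0.09. T cell receptor beta V segments had 1 of 34 lower (median -0.07, or -0.34 against chromosome 6). With a library left out the median of -0.07 became -0.19 to -0.05. Bitter taste receptor genes, 32 of 34 on chromosome 6, had 1 higher (Tas2r125) and a median of 0.10, or -0.16 against their chromosomes. Immunoglobulin heavy V segments, which lie on chromosome 12, fell in 16 of 167 cases (9.58%, against 10.3% of all genes) and rose in 2. The lower calls were 7 without WT replicate 1 and 10 without LBRKO replicate 2 or 3. Bitter taste receptor genes had 0 to 3 higher and T cell receptor beta V segments 0 to 3 lower with a library left out.

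Zinc finger genes numbered Zfp900 to Zfp999, most of them KRAB repressors, fell in 18 of 42 cases and rose in 4, Zfp950 from 20.5, 18.6 and 18.5 to 34.5, 36.2 and 32.9 (0.84). Keratin-associated and ribosomal protein genes had smaller shares called than the 13.3% higher and 10.3% lower over all genes. Keratin-associated protein genes fell in 4 of 96 cases (4.17%), or 8 without WT replicate 2. Ribosomal protein genes had 4 of 83 higher (4.82%), among them Rpl5 (1.15), and 3 lower, or 0 to 2 lower with a library left out. Histone genes taken by symbol had 2 of 28 higher, H4c16 and H1f8, an oocyte linker histone that is not replication-dependent, both on chromosome 6, or 1 higher against their own chromosomes. MicroRNA genes rose in 49 of 965 cases (5.08%) and fell in 16 (1.66%); of the 7032 shortest genes, with a median length of 131 bases, 4.86% rose and 3.53% fell. The higher calls were 30 without LBRKO replicate 1, and the lower calls 8 without that library, 10 without LBRKO replicate 3 and 4 without WT replicate 1. Among them was Mir423, from 0.27, 0.16 and 0.09 to 0.62, 0.68 and 0.64 (1.51). MicroRNA genes are shorter than a 1 kb bin, so such a value takes in the sequence around the gene.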
